A study of Rattus norvegicus with 14 samples.

Results

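The insulin-like growth factor (IGF) axis genes described here are Igf1, which encodes the growth factor IGF1, the receptor genes Igf1r and Igf2r, and 6 IGF binding protein genes, Igfbp2, Igfbp3, Igfbp4, Igfbp5, Igfbp6 and Igfbp7. They were chosen by gene symbol in the annotation of the array, and all 9 of 9 were found, each with 1 transcript cluster (the group of probes that reads one gene), among the 18166 genes tested. The choice was made with earlier results of these data known, so member counts set beside shares of all genes are descriptive. Messenger RNA was measured in the epididymis, the long coiled duct in which sperm mature after leaving the testis, of Sprague-Dawley rats at 4 ages. Days 7, 18, 28 and 60 had 3, 4, 4 and 3 arrays, each with RNA from its own pool of whole epididymides. The labels name no treatment or engineered allele and no number of animals per pool, and p-values measure the spread between these pools. Per the labels, the day 7 and day 18 rats were still with their nursing mothers and the older rats were fed freely, so age and feeding cannot be told apart.

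IGF1 is a secreted peptide that signals for growth and survival through IGF1R, a receptor tyrosine kinase at the cell surface. The liver releases it into blood under growth hormone, and connective tissue cells of many organs make it locally. In tissue fluid most of it is held by the binding proteins, which can keep it from the receptor or deliver it, while IGF2R takes the related factor IGF2 into the cell for degradation and sends no growth signal of its own; in the male tract this system is among the growth factor pathways of the developing duct.

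Values are log2 signals, so a difference of 1 is a doubling of signal, and levels of different genes are not compared because each is read by its own probes. The lowest member value in any pool was 7.49, above the array background of 4.86, the 95th percentile of 227 olfactory and vomeronasal receptor genes. Array medians lay between 5.21 and 5.42, and arrays of one age correlated at 0.989 to 0.995 across genes. The highest median, 5.42, belonged to day 28 replicate 2. Its score on the third principal component (6.07% of the variance) was 25.2, against 14.2 to 15.9 for the rest of that age, and results that rest on it are given with and without it. The tissue label was set beside its markers. All 9 measured genes of a duct epithelium list averaged above background over the 14 arrays. So did all 8 measured genes of a list for secretory principal cells and all 10 genes of a fibroblast list. Being above background therefore does not single out duct tissue. All 8 principal cell genes were higher at day 60 than at day 7 (limma, adjusted p under 0.05), as were 21.7% of all genes. Their list mean at day 7, 4.70 to 5.04, lay about background, so they do not bear on the label at that age. In these bulk pools, fewer cells of a type and less RNA per cell cannot be told apart.

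The step with the most member calls was the first. At day 18 against day 7, 7 of the 9 members fell and the other 2, Igf1r and Igfbp7, did not pass the test (limma with Benjamini-Hochberg adjustment over all 18166 genes, threshold 0.05). Among all genes 38.1% were called at this step, 17.4% as higher and 20.7% as lower, and the median member difference was -0.77 against 0.01 for all genes. At day 28 against day 18, 3 members rose (Igf1, Igfbp4, Igfbp5) and 3 fell (Igfbp2, Igfbp3, Igfbp6), with 24.7% of all genes called, 10.5% higher and 14.3% lower; with each array centred on its median, 31.7% of the calls at this step were higher, in place of 42.3%. At day 60 against day 28, Igf1 and Igfbp6 rose and Igfbp2 and Igfbp3 fell, with 25.0% of all genes called, 13.8% higher and 11.2% lower; centring made 71.7% of the calls higher, in place of 55.2%. The member medians of these later steps were -0.10 and 0.07, against -0.02 and -0.02 for all genes.

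Over the whole interval, at day 60 against day 7, Igf1 rose and 6 members fell (Igf2r, Igfbp2, Igfbp3, Igfbp4, Igfbp5, Igfbp7), with 49.2% of all genes called, 21.7% higher and 27.6% lower. The median member difference was -0.68 against -0.03 for all genes. Pool values of the ages did not overlap for 8, 6 and 6 of the 9 members at the 3 successive steps, against 45.1%, 26.5% and 31.4% of all genes, and for 8 of 9 at day 60 against day 7, against 57.8%. A joint F test over the 4 ages called 8 of the 9, all but Igf1r, with 60.4% of all genes called. Igf1, Igfbp2, Igfbp3 and Igfbp6 were called at every one of the 3 steps, as were 6.44% of all genes.

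**Figure D1:**
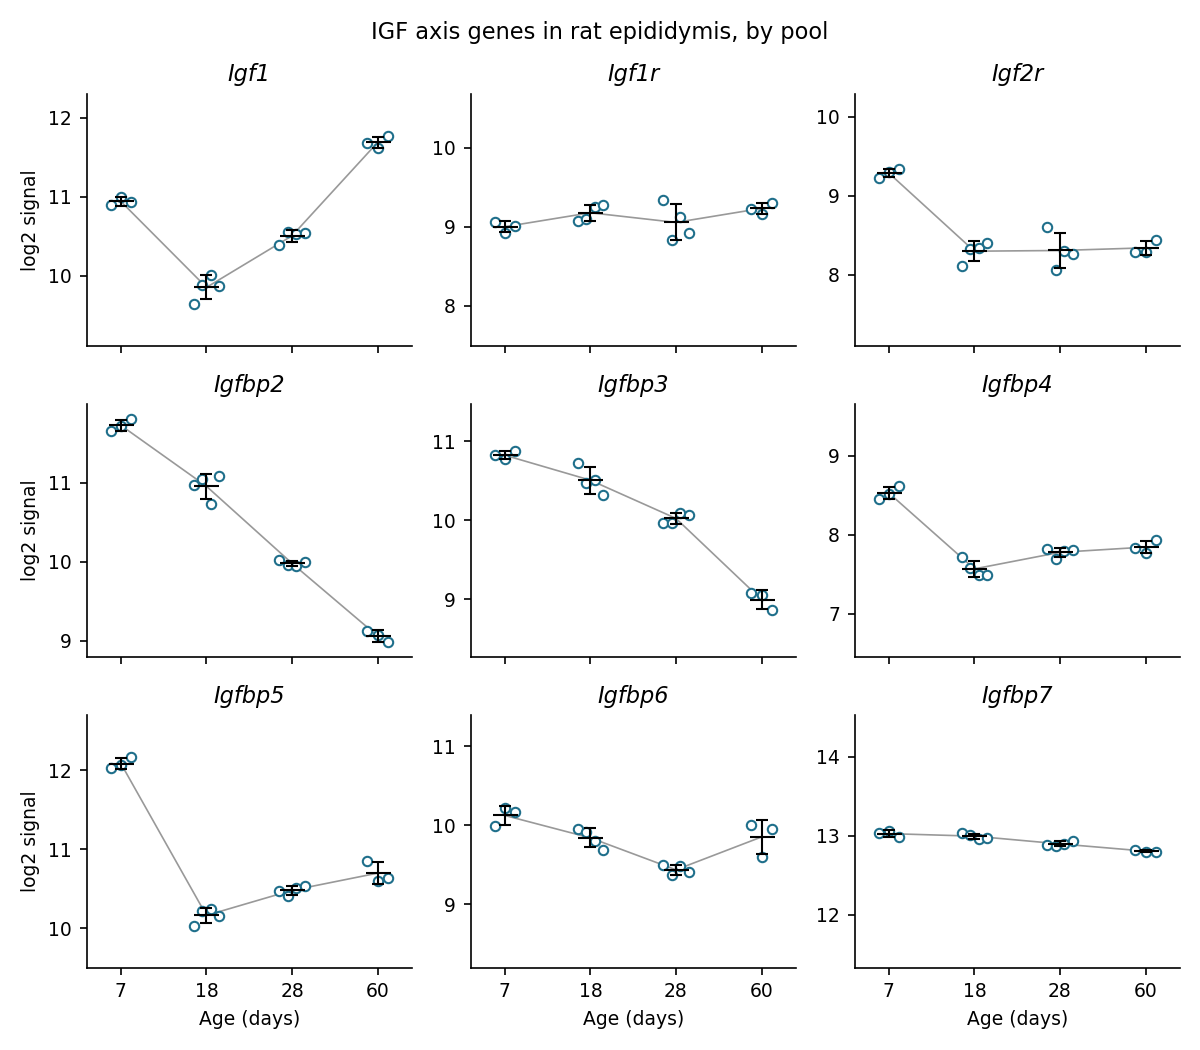
Log2 signal (vertical axes, all spanning the same range in log2 units) of the 9 IGF axis genes against age in days, with 1 point per pool, bars at the mean ± SD of each age and a line through the means. Igf1 is lowest at day 18 and highest at day 60, Igfbp2 and Igfbp3 step down at each age, Igfbp5 drops once after day 7, and Igfbp7 stays between 12.80 and 13.07.

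Igf1, the ligand, moved in both directions. Its log2 signal was 10.89, 11.00 and 10.93 in the day 7 pools, 9.65, 9.89, 10.01 and 9.87 at day 18, 10.40, 10.56, 10.53 and 10.54 at day 28, and 11.68, 11.62 and 11.77 at day 60. The day 18 pools were all the lowest and the day 60 pools all the highest, and no pool of one age fell within the range of another. Igf1 was 2.13-fold lower at day 18 than at day 7 (log2 difference -1.09 ± 0.087, SE, adjusted p = 1.49e-07), then 1.57-fold higher at day 28 than at day 18 (0.65 ± 0.080, adjusted p = 3.02e-05). The rise at day 60 against day 28 was 2.27-fold (1.18 ± 0.087, adjusted p = 3.95e-07).

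From low to high, the ages of Igf1 ran day 18, day 28, day 7 and day 60, with means of 9.85 ± 0.15, 10.51 ± 0.075, 10.94 ± 0.056 and 11.69 ± 0.075 (SD, n = 4, 4, 3 and 3), and every neighbouring pair in that order differed. Day 28 stood 0.43 below day 7 on the log2 scale (difference -0.43 ± 0.087, adjusted p = 0.000706, with 48.0% of all genes called), and day 60 stood 1.68-fold above day 7 (0.75 ± 0.093, adjusted p = 7.22e-06). The span between the highest and lowest age was 3.57-fold. A fall at the first step with a rise at both later steps was called for 133 genes, 0.732% of those tested.

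The promoters of Igf1 and of the 3 binding protein genes whose age means also spanned at least 1 on the log2 scale (Igfbp2, Igfbp3 and Igfbp5) are shown where each gene is described, because these genes followed 3 different courses. Each window holds 250 bases before and 50 after the start of the gene in RefSeq (GRCr8), 5′ to 3′ on the strand of the gene. Capitals mark a match, on either strand, to one of 6 motifs: TATAAA (the classic box near gene starts), CCAAT (a promoter motif), GGGCGG (the GC box), CACGTG (an E-box), AGAACA (bound by androgen receptor, and read as TGTTCT on the opposite strand) and TTTGAA (the cell cycle homology region). Among 33469 promoters of that length, the first motif was found in 14.2%, CCAAT in 37.5%, the GC box in 33.1%, the E-box in 6.42%, the androgen receptor motif in 20.7% and the last in 18.3%.

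The Igf1 window (chr7:24172282-24172581, plus strand, GC content 48.3%, against a median of 51.7% over all promoters) starts at a transcript inside the annotated gene, not at its outer end. It held 1 match to TTTGAA and 1 to the androgen receptor hexamer, read here as TGTTCT, and the matches did not overlap.
Igf1: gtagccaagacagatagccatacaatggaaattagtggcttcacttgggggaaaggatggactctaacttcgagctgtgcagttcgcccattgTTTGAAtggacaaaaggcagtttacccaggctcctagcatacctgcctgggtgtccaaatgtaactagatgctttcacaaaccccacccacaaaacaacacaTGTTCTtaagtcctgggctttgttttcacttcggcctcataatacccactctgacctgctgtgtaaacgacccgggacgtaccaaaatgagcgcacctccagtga

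The receptors differed from each other. Igf1r, which carries the growth signal of IGF1, read 9.07, 8.93 and 9.01 at day 7, 9.08, 9.10, 9.26 and 9.28 at day 18, 9.35, 8.83, 9.12 and 8.92 at day 28, and 9.23, 9.16 and 9.31 at day 60. The day 28 pools held both the lowest and the highest Igf1r value of the series. None of its 4 comparisons passed the test, 0 of 4 at an unadjusted limma p under 0.05 as well. The difference was 0.18 at day 18 against day 7 (95% interval -0.06 to 0.41, adjusted p = 0.229) and 0.23 at day 60 against day 7 (-0.02 to 0.48, adjusted p = 0.117). Without day 28 replicate 2 the differences of its later steps were -0.05 at day 28 against day 18 and 0.10 at day 60 against day 28, in place of -0.12 and 0.18. Without day 28 replicate 1, the highest pool, the joint F test called Igf1r (adjusted p = 0.0463, against 0.243 with all pools). After quantile normalization of the table the day 60 against day 7 difference was 0.28 and passed (adjusted p = 0.0483).

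Igf2r, the receptor that clears IGF2, changed once. It read 9.23, 9.30 and 9.33 at day 7, 8.11, 8.33, 8.34 and 8.40 at day 18, 8.60, 8.05, 8.30 and 8.26 at day 28, and 8.28, 8.29 and 8.44 at day 60. All 3 day 7 pools lay above every later pool, and the 3 later ages overlapped. It was 1.99-fold lower at day 18 than at day 7 (-0.99 ± 0.11, adjusted p = 5.37e-06) and 1.93-fold lower at day 60 than at day 7 (adjusted p = 8.6e-06). The differences after day 18 were 0.01 (95% interval -0.21 to 0.23) at day 28 against day 18 and 0.03 (-0.21 to 0.27) at day 60 against day 28. Without day 28 replicate 2, which was the lowest pool of its age, they were 0.09 and -0.05 and still missed the threshold (adjusted p = 0.558 and 0.775).

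Igfbp2 and Igfbp3 fell at all 3 steps, which 255 genes did, 1.40% of those tested. Igfbp2, a binding protein abundant in fetal tissues and fluids, read 11.66, 11.72 and 11.81 at day 7, 10.98, 11.04, 10.73 and 11.08 at day 18, 10.02, 9.96, 9.95 and 10.00 at day 28, and 9.13, 9.08 and 8.99 at day 60. Each age lay wholly below the one before it. The steps were -0.77 ± 0.086 at day 18 against day 7 (adjusted p = 4.91e-06), -0.98 ± 0.080 at day 28 against day 18 (adjusted p = 5.36e-07) and -0.92 ± 0.086 at day 60 against day 28 (adjusted p = 3.91e-06). Igfbp2 was 6.35-fold lower at day 60 than at day 7 (-2.67 ± 0.092, adjusted p = 6.7e-12). Its promoter (chr9:81864561-81864860, plus strand, GC content 66.7%) held 1 match to CACGTG and 1 to GGGCGG.
Igfbp2: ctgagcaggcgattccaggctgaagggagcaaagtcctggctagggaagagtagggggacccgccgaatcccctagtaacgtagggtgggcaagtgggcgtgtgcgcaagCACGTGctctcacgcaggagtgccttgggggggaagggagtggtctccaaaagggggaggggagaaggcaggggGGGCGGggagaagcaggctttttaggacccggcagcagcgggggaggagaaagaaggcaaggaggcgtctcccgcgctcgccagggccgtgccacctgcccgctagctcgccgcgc

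Igfbp3, the main carrier of IGF1 in blood, read 10.82, 10.77 and 10.88 at day 7, 10.73, 10.47, 10.52 and 10.32 at day 18, 9.97, 9.97, 10.09 and 10.07 at day 28, and 9.08, 9.05 and 8.86 at day 60. The ages did not overlap, although day 18 replicate 1 came within 0.1 of the day 7 pools. The steps were -0.32 ± 0.094 at day 18 against day 7 (adjusted p = 0.0145), -0.48 ± 0.087 at day 28 against day 18 (adjusted p = 0.000817) and -1.03 ± 0.094 at day 60 against day 28 (adjusted p = 2.94e-06). The first of them missed the threshold without day 7 replicate 3 (adjusted p = 0.0561). Igfbp3 was 3.55-fold lower at day 60 than at day 7 (-1.83 ± 0.10, adjusted p = 9.7e-10). Its promoter (chr14:86277895-86278194, minus strand) had a GC content of 71.7% and no match to the 6 motifs, so it carries no capitals.
Igfbp3: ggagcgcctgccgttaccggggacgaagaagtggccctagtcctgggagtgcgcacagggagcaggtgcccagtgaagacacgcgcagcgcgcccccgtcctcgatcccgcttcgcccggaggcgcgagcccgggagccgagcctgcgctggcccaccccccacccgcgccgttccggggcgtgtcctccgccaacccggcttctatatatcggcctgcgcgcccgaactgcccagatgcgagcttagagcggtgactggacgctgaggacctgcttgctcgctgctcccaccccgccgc

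Igfbp5 and Igfbp4 fell once, rose in part after day 18 and stayed below their day 7 levels. Igfbp5, a binding protein that also attaches to extracellular matrix, read 12.03, 12.07 and 12.17 at day 7, 10.03, 10.22, 10.24 and 10.16 at day 18, 10.47, 10.40, 10.51 and 10.53 at day 28, and 10.86, 10.60 and 10.64 at day 60. All day 7 pools lay more than 1 log2 unit above every other pool. The fall at day 18 against day 7 was 3.79-fold (-1.92 ± 0.083, adjusted p = 2.71e-10). A smaller rise followed at day 28 against day 18 (0.32 ± 0.077, adjusted p = 0.00712), and the day 60 against day 28 difference of 0.22 ± 0.083 missed the threshold (adjusted p = 0.0693) although the pools did not overlap. Against day 18, Igfbp5 was higher at day 60 by 0.54 ± 0.083 (adjusted p = 0.000104), a comparison not recomputed under the alternatives, and the pools did not overlap. At day 60 Igfbp5 was still 2.62-fold lower than at day 7 (-1.39 ± 0.088, adjusted p = 5.12e-09). Its promoter (chr9:81914138-81914437, minus strand, GC content 50.7%) held none of the 6 motifs.
Igfbp5: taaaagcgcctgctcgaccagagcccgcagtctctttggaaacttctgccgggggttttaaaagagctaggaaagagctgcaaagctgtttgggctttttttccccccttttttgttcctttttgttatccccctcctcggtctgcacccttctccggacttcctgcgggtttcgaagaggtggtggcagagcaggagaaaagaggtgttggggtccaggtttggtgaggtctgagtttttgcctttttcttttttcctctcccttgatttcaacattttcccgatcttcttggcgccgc

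Igfbp4, a binding protein that holds IGF away from its receptor until a protease cuts it, read 8.46, 8.51 and 8.62 at day 7, 7.72, 7.58, 7.49 and 7.49 at day 18, 7.82, 7.69, 7.80 and 7.81 at day 28, and 7.83, 7.78 and 7.93 at day 60. The day 7 pools lay apart above all others, and the day 28 pools overlapped both the day 18 and the day 60 pools. Igfbp4 was 1.95-fold lower at day 18 than at day 7 (-0.96 ± 0.079, adjusted p = 1.9e-07) and 1.61-fold lower at day 60 than at day 7 (-0.68 ± 0.084, adjusted p = 6.39e-06). The rise at day 28 against day 18 (0.21 ± 0.073) passed by a narrow margin (adjusted p = 0.0484). It ended when any one of 12 of the 14 pools was left out, all but day 18 replicate 1 and day 28 replicate 2 (adjusted p 0.0515 to 0.123), and with each array centred on its median (adjusted p = 0.244). Igfbp4 was also higher at day 60 than at day 18 (0.28 ± 0.079, adjusted p = 0.0108) without overlap of pools. That comparison was not recomputed under the alternatives.

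Igfbp6, which binds IGF2 in preference to IGF1, fell and then rose. It read 9.99, 10.22 and 10.16 at day 7, 9.95, 9.92, 9.81 and 9.69 at day 18, 9.49, 9.37, 9.48 and 9.40 at day 28, and 10.01, 9.60 and 9.95 at day 60. The day 28 pools were the lowest of the 4 ages, and day 60 replicate 2 lay nearer to them than the other day 60 pools. The fall at day 28 against day 18 (-0.40 ± 0.096, adjusted p = 0.00632) and the rise at day 60 against day 28 (0.42 ± 0.10, adjusted p = 0.00872) passed the test.

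The Igfbp6 difference at day 18 against day 7 was -0.28 ± 0.10 (adjusted p = 0.0422), and this call ended after quantile normalization (adjusted p = 0.113) and without any one of 6 pools (day 7 replicates 2 and 3, day 18 replicates 3 and 4, day 28 replicates 3 and 4, adjusted p 0.0516 to 0.157). At day 60 against day 7 the difference was -0.27 ± 0.11 (adjusted p = 0.0543) with overlapping pools. It passed without day 7 replicate 1 (adjusted p = 0.0338) or day 60 replicate 1 (adjusted p = 0.027), and also with array weights (0.0428), without genes below the median level (0.0237) and with an intensity trend (0.0147).

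Igfbp7, a secreted relative that binds IGFs weakly and is abundant around vessels, spanned 0.22 on the log2 scale over the whole series. It read 13.04, 13.07 and 12.99 at day 7, 13.03, 13.02, 12.97 and 12.97 at day 18, 12.89, 12.87, 12.90 and 12.94 at day 28, and 12.83, 12.80 and 12.80 at day 60. The day 7 and day 18 pools overlapped, the day 28 pools lay below both, and the day 60 pools were the lowest. Of the 4 comparisons only day 60 against day 7 passed, at -0.22 ± 0.065 (adjusted p = 0.0105), and that call ended after quantile normalization (-0.16, adjusted p = 0.0514). The joint F test called it (adjusted p = 0.0259) but not without day 7 replicate 1 (0.0552), day 7 replicate 2 (0.0599), day 60 replicate 2 (0.0639) or day 60 replicate 3 (0.074). The joint call also ended after quantile normalization (0.0865) and with the replicate number as a block (0.0616). With an intensity trend and robust prior the joint F test gave an adjusted p of 4.67e-05. Under that setting day 28 against day 18 passed too (-0.10, limma adjusted p = 0.03).

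**Figure D2:**
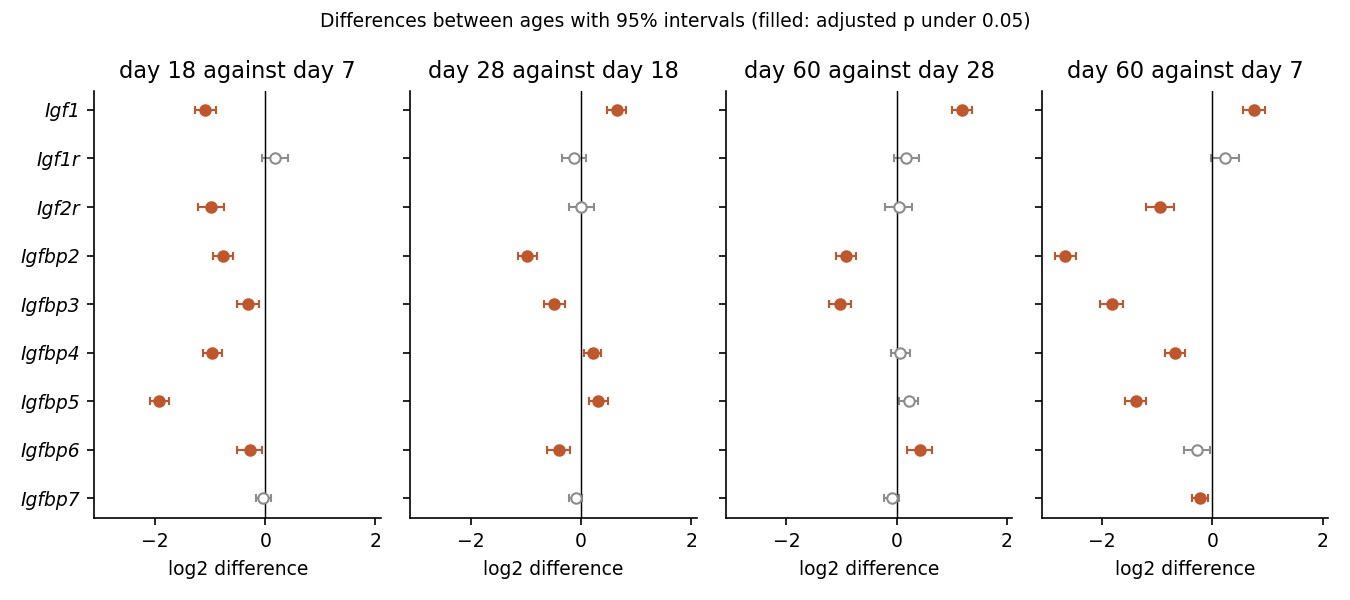
Log2 differences, later minus earlier age (horizontal axes), of the 9 IGF axis genes in the 4 comparisons, with 95% intervals; filled points have an adjusted p under 0.05. No filled point lies right of 0 at day 18 against day 7, and Igf1 and Igfbp2 lie farthest apart, at 0.75 and -2.67, at day 60 against day 7.

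Of the members, Igfbp2 and Igfbp5 are neighbours in the genome and moved in opposite directions at day 28 against day 18. In the RefSeq gene order of GRCr8, Igfbp2 and Igfbp5 are adjacent protein-coding genes on chromosome 9. Both fell at day 18 against day 7, and at the next step Igfbp2 fell by 0.98 while Igfbp5 rose by 0.32 on the log2 scale. Igfbp3 is adjacent on chromosome 14 to Igfbp1, a binding protein known as a liver product and outside the 9 members. Igfbp1 read 6.46, 6.58 and 6.53 at day 7, 6.34, 6.33, 6.39 and 6.67 at day 18, 5.32, 5.31, 5.39 and 5.37 at day 28, and 5.04, 4.85 and 5.55 at day 60. Its 1 called step was the fall at day 28 against day 18 (-1.09 ± 0.12, adjusted p = 1.39e-05), where all day 28 pools lay below all day 18 pools, and Igfbp3 fell at that step too. None of these 4 genes was tested against its neighbour.

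Outside the 9 members, the list of other IGF ligands, receptors and carriers had 8 of 8 genes measured. At day 18 against day 7 only Igf2 was called, as lower. Counts higher and lower were 2 and 2 at day 28 against day 18, 1 and 1 at day 60 against day 28, and 2 and 2 at day 60 against day 7. The list medians of the 4 comparisons, in the same order, were -0.10, 0.12, -0.14 and -0.07. For this list and the pathway lists below, the medians of all genes were 0.01, -0.02, -0.02 and -0.03. Of all genes 38.1%, 24.7%, 25.0% and 49.2% were called at these comparisons, and no list was tested as a set. Igfals, Ins1 and Insrr averaged below the array background.

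Igf2, the fetal ligand that Igf2r clears, read 11.05 to 11.27 at day 7, 8.58 to 8.72 at day 18, 7.48 to 7.71 at day 28 and 6.80 to 6.88 at day 60. Its ages did not overlap, and it was lower at day 60 than at day 7 by a log2 difference of -4.35 ± 0.086 (adjusted p = 3.09e-14), whereas Igf1 was higher at day 60 than at day 7 by 0.75. Insr, the insulin receptor, which also forms hybrids with IGF1R, was higher at day 60 than at day 7 (0.63 ± 0.11, adjusted p = 0.000275). The insulin genes Ins1 and Ins2 were the 2 called higher at day 28 against day 18. Every pool of Ins1 lay below the array background (highest 4.18), so its calls, here and at day 60 against day 7, are not read as a change in expression. The call of Ins2 (0.50 ± 0.17, adjusted p = 0.0468) ended without any one of 9 of the 14 pools (adjusted p 0.0554 to 0.142), among them day 28 replicate 2.

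The growth hormone axis, which drives Igf1 in liver, had 9 of 9 genes measured. Counts higher and lower were 5 and 3 at day 18 against day 7, 4 and 3 at day 28 against day 18, 3 and 1 at day 60 against day 28, and 4 and 3 at day 60 against day 7, with medians of 0.31, 0.08, 0.14 and -0.01. Ghr, the growth hormone receptor, read 7.60, 7.62 and 7.56 at day 7, 6.51, 6.63, 6.64 and 6.65 at day 18, 6.83, 6.74, 6.78 and 7.17 at day 28, and 7.69, 7.60 and 7.47 at day 60. It was lowest at day 18, as Igf1 was, and its day 60 pools overlapped the day 7 pools. Ghr fell at day 18 against day 7 (-0.99 ± 0.099, adjusted p = 1.54e-06) and rose at day 28 against day 18 (0.27 ± 0.091, adjusted p = 0.0407) and at day 60 against day 28 (0.71 ± 0.099, adjusted p = 0.000126). Its middle step was singled out after its values were seen and was not recomputed under the alternatives.

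Downstream of that receptor, Jak2, the kinase it uses, rose at day 18 against day 7 by 1.01 ± 0.083 (adjusted p = 1.82e-07). Stat5a, a transcription factor that the kinase activates, rose at the same step by 1.47 ± 0.11 (adjusted p = 1.05e-07) and stood 2.05 ± 0.12 higher at day 60 than at day 7. Socs3, a feedback inhibitor of such receptors that also responds to many cytokines, fell by 1.90 ± 0.20 at day 18 against day 7 (adjusted p = 2.54e-06), and Socs2 fell too. Socs1, of the same inhibitor family, was lower at day 60 than at day 7 (-0.52 ± 0.12, adjusted p = 0.00169). Prlr, the prolactin receptor, was 1.95 ± 0.18 higher at day 60 than at day 7 (adjusted p = 2.26e-07), with a day 7 mean below background. Its call at day 60 against day 28 (0.55 ± 0.16, adjusted p = 0.0249) ended without day 28 replicate 2 (0.0658), day 60 replicate 1 (0.0836) or day 60 replicate 3 (0.0685).

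Proteases that cut the binding proteins, with their inhibitors, made up a list with 13 of 13 genes measured. Counts higher and lower were 4 and 7 at day 18 against day 7, 4 and 2 at day 28 against day 18, 5 and 1 at day 60 against day 28, and 4 and 6 at day 60 against day 7, with medians of -0.57, -0.08, 0.25 and -0.04. Those that fell at day 18 included Pappa, the protease known for cutting IGFBP4, Htra3 (-1.47 ± 0.12, adjusted p = 2.44e-07) and Adam12 (-1.61 ± 0.086, adjusted p = 2.76e-09). Adam9, another membrane protease, rose by 1.16 ± 0.074 at the same step (adjusted p = 1.49e-08).

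Pappa2, which is known for cutting IGFBP3 and IGFBP5, rose at day 28 against day 18 (0.72 ± 0.14, adjusted p = 0.00178) and again at day 60 against day 28 (0.80 ± 0.15, adjusted p = 0.00156), its day 18 mean lying below background. Stc2, an inhibitor of PAPPA, fell at day 60 against day 28 (-0.99 ± 0.12, adjusted p = 3.9e-05). Mmp7 fell at day 28 against day 18 (-2.67 ± 0.53, adjusted p = 0.00195), with pools from 5.42 to 7.75 at day 28 and from 8.23 to 9.30 at day 18.

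The widest change in the list was in Adam28, which has been described as cutting IGFBP3. It read 3.60, 3.17 and 3.47 at day 7, 3.89, 4.03, 4.85 and 4.36 at day 18, 5.32, 6.98, 6.24 and 6.26 at day 28, and 9.63, 9.99 and 9.76 at day 60. The day 7 and day 18 values lay below the array background, so the sizes of differences against them are uncertain, while day 60 exceeded day 28 by 3.59 ± 0.30 (adjusted p = 1.31e-06). Its call at day 18 against day 7 (adjusted p = 0.0314) ended without day 7 replicate 2 (0.117), day 7 replicate 3 (0.0633), day 18 replicate 3 (0.0915) or day 18 replicate 4 (0.061).

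Of the receptor signalling list, 34 of 42 genes were measured. Counts higher and lower were 7 and 10 at day 18 against day 7, 3 and 6 at day 28 against day 18, 7 and 4 at day 60 against day 28, and 9 and 11 at day 60 against day 7, with medians of -0.05, -0.09, 0.06 and -0.01. Of all genes 38.1%, 24.7%, 25.0% and 49.2% were called at these comparisons, so the counts are not read as a change of the pathway. Grb10, an adaptor that dampens IGF1R and insulin receptor signalling, read 10.13, 10.22 and 10.26 at day 7, 9.16, 9.23, 9.12 and 9.17 at day 18, 8.58, 8.26, 8.33 and 8.32 at day 28, and 7.71, 7.49 and 7.59 at day 60. Each age lay below the one before it, and Grb10 was lower at day 60 than at day 7 by a difference of -2.61 ± 0.092 (adjusted p = 7.96e-12). The related adaptor Grb14 fell at day 18 against day 7 (-1.39 ± 0.12, adjusted p = 2.27e-07), as did the substrate genes Irs1 and Irs2, which pass the signal of the receptor inward. The day 18 pools of Grb14 read 4.81 to 5.01, about the array background of 4.86, so the size of its fall is uncertain.

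Some genes of the lipid kinase that acts below those substrates rose at some comparisons. Pik3cb (0.92 ± 0.11, adjusted p = 7.22e-06) and Pik3cd (0.56 ± 0.10, adjusted p = 0.000427), catalytic subunits, rose at day 18 against day 7. Pik3cd did not rise further, with pools of 6.62 to 6.99 at day 18, 6.48 to 6.80 at day 28 and 6.58 to 6.66 at day 60. Pik3r3, a regulatory subunit, rose at day 28 against day 18 (0.56 ± 0.087, adjusted p = 0.000253) and was 1.43 ± 0.10 higher at day 60 than at day 7 (adjusted p = 1.5e-08).

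**Figure D3:**
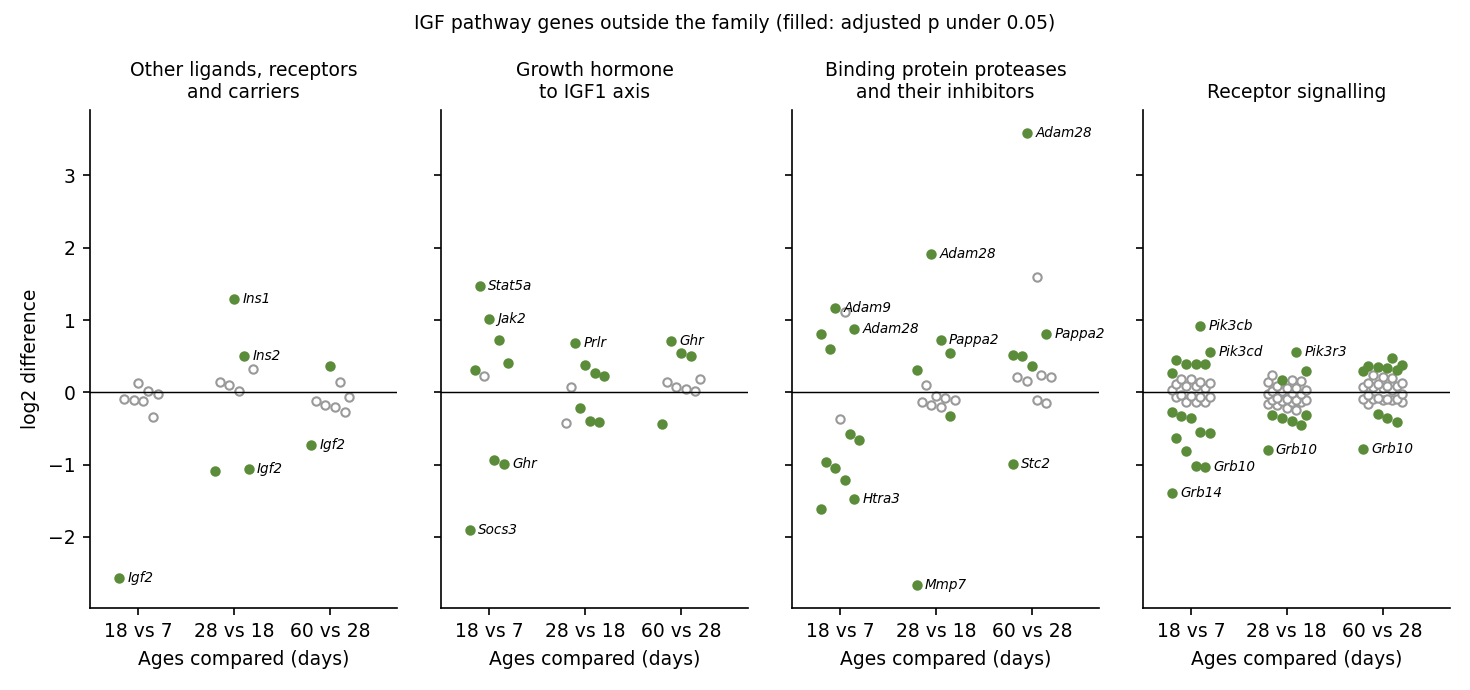
Log2 differences, later minus earlier age (vertical axis), of the genes of 4 IGF pathway lists outside the 9 members at the 3 steps between neighbouring ages (horizontal axis); filled points have an adjusted p under 0.05, and names mark some of the largest changes. Igf2 lies at -2.56 at the first step, Ghr lies below 0 at the first step and above it at the last, Adam28 is the highest point at the last step, and Ins1 is named although all its pools lay below background.

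Several marker lists moved at the steps where members moved, and their part in the member results was not tested. Of all genes, 17.4%, 10.5% and 13.8% were called higher and 20.7%, 14.3% and 11.2% lower at the 3 successive steps. At day 18 against day 7, 9 of 10 fibroblast genes fell (median -0.73), and the mean log2 signal of the list was 10.49 to 10.62 in the day 18 pools against 11.26 to 11.35 in the day 7 pools, with every gene above background. Igf1, Igf2r, Igfbp4 and Igfbp5, each about 1 or more lower on the log2 scale, fell at this step. Smooth muscle genes (5 of 7 lower), endothelial genes (4 of 7 lower, 1 higher), mesothelial genes (5 of 5 lower) and immediate early genes (8 of 8 lower, list mean 7.38 to 7.64 at day 18 against 9.20 to 9.83 at day 7) fell at it too. Lists that rose at this step were duct epithelium (9 of 9 genes), T lymphocytes (7 of 8), secretory principal cells (6 of 8), clear and narrow cells (5 of 7), adipocytes (4 of 6) and basal cells (3 of 5). Of the T lymphocyte list, Cd3d and Cd3g averaged below the array background of 4.86. The day 7 list mean of secretory principal cells, 4.70 to 5.04, lay about that level.

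After day 18 the fibroblast list means stayed at 10.57 to 10.68 at day 28 and 10.51 to 10.56 at day 60, while Igf1 rose at both steps. Of the 10 fibroblast genes, 2 rose and 1 fell at day 28 against day 18, and 2 rose and 4 fell at day 60 against day 28. At day 28 against day 18, where Igf1 and Igfbp5 rose, 6 of 7 smooth muscle genes and 4 of 7 endothelial genes rose as well. The list with the largest median difference at this step was that of secretory principal cells, with 8 of 8 genes higher (median 2.88) and list means of 10.34 to 10.52 at day 28 against 7.45 to 7.91 at day 18. Adipocyte genes rose, 2 of 6 with 0 lower (median 0.59), and mesothelial genes fell, 5 of 5. At day 60 against day 28, where Igf1 and Igfbp6 rose, 6 of 8 macrophage genes rose and the list mean was 7.88 to 7.98 in the day 60 pools against 7.33 to 7.47 in the day 28 pools. At the same step 2 of 6 adipocyte genes rose, and 6 of 6 were higher at day 60 than at day 7, as were 21.7% of all genes. The adipocyte list mean was 5.27 to 5.69 at day 7 and 5.94 to 6.90 at day 18. It was 6.69 to 7.47 at day 28, overlapping day 18, and 7.65 to 7.88 at day 60. Of the haploid germ cell genes 6 of 7 rose, with a list mean of 7.04 to 7.46 at day 60 against 4.12 to 4.43 at day 28. These day 28 means lay below the array background of 4.86, and Akap4 and Tnp2 of that list averaged below it.

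The cycling cell list fell alongside Igfbp2 and Igfbp3. Of its 8 genes 7 fell at day 18 against day 7, and all 8 fell at each later step. The list mean was 8.84 to 8.96 at day 7, 8.02 to 8.24 at day 18, 7.39 to 7.76 at day 28 and 6.48 to 6.67 at day 60, with no overlap between ages.

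**Figure D4:**
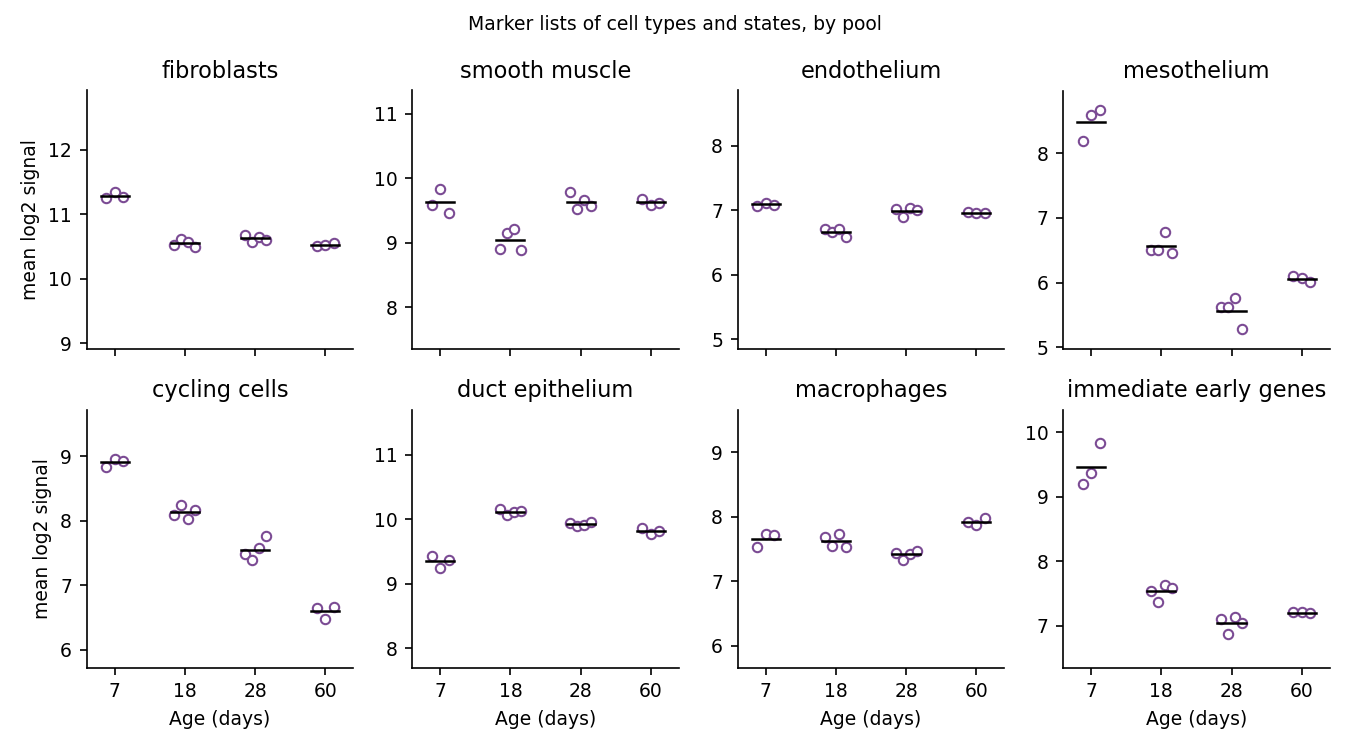
Mean log2 signal of 8 marker gene lists (vertical axes, spans equal) against age in days, with 1 point per pool and a bar at the mean of each age. The fibroblast list drops once, between day 7 and day 18, and then stays between 10.49 and 10.68; the cycling cell list steps down at every age.

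For the 4 members that spanned at least 1 on the log2 scale, as 16.5% of all genes did, the 3 genes with the most similar course were found by the root mean square (RMS) distance between age means, each gene centred on its own mean over the 4 ages. Igf2r, with a span of 0.99, lay just outside that limit. Nearest to Igf1 were Rtn1 (0.092), which encodes a reticulon of the endoplasmic reticulum, Dnajc5b (0.13), a gene of a heat shock protein co-chaperone family, and Pcsk1n (0.14), whose product inhibits a prohormone convertase. The day 18 mean of Dnajc5b, 4.93, lay about the array background of 4.86, so the depth of its low point is uncertain. Nearest to Igfbp2 were Aurkb (0.091), a mitotic kinase that is also in the cycling cell list, and the histone genes H2ax (0.10) and H2ac4 (0.10).

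Nearest to Igfbp3 were Cep55 (0.054) and Racgap1 (0.060), which act in the separation of daughter cells, and Mcm7 (0.079), a subunit of the replicative helicase. Nearest to Igfbp5 were Tgfb2 (0.072), a growth factor, Slc1a4 (0.078), an amino acid transporter, and Cdh6 (0.088), a cadherin. These distances, from 0.054 to 0.14 over 4 age means, are a description of these 14 arrays, and the genes share the arrays. The genes were picked for being nearest, so their small distances are not a test. In 72 recomputations of a member's list under other settings or without 1 pool, all 3 genes were the same in 44 and 2 of 3 in 28.

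**Figure D5:**
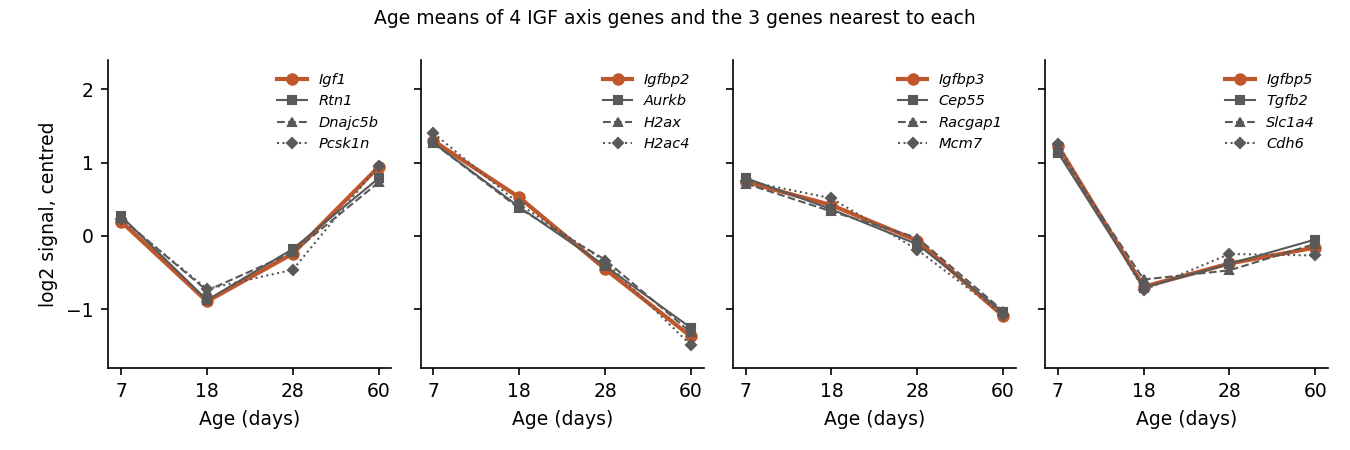
Age means of log2 signal, centred on the mean of each gene (vertical axis), against age in days for Igf1, Igfbp2, Igfbp3 and Igfbp5 (thick lines) and the 3 genes nearest to each (thin lines). The Igf1 group has its low point at day 18, the Igfbp2 and Igfbp3 groups descend at every age, and the Igfbp5 group drops once after day 7.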

How the data were processed

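RNA of 14 pools was hybridised to Affymetrix RatGene 2.0 ST arrays, 1 per pool. The authors deposited a table of log2 signals for 36685 transcript clusters; per the submitters' processing notes it was made with RMA, which corrects background, normalizes and summarises probes, and Transcriptome Analysis Console, and their versions and settings are not given in the sources used here. The values were used as deposited. The platform annotation gave 1 symbol to 18511 clusters, several to 575 and none to 17599; 18394 of those with 1 symbol matched RefSeq by gene identifier and 0 symbols changed. Of the 291 genes with several clusters, the one with the highest mean was kept, which left 18166 genes and touched no member.

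One limma (3.58.1, R 4.3.3) model with a mean per age was fitted to all 14 arrays, with 10 residual degrees of freedom, empirical Bayes moderation and Benjamini-Hochberg adjustment over all genes (threshold 0.05). Errors of differences are SEs of this fit and errors of levels are SDs over pools; the number of arrays limits the precision. The model was tested on simulated data in which far fewer genes changed than were called here, so that test does not cover the conditions of these data. Every member is given with its pool values; of the 4 pathway lists, genes called with a log2 difference of at least 0.5 may be named, the 2 largest rises and falls of each comparison with values; 3 nearest genes are given for members spanning at least 1. The members and lists were chosen with earlier results of these data known. The labels do not say what the replicate numbers mark. Of 19 same-numbered pairs of deviations 0 correlated above 0.1 (range -0.14 to 0.046), which cannot show whether pools shared a litter, batch or day. The alternatives were quantile normalization, centring, a filter on level, an intensity trend, array weights, a replicate block, other rules for clusters, the ages compared alone and each pool left out in turn. The comparisons of day 28 with day 7 and day 60 with day 18, and a background that also counts genes with Or symbols (1344 genes, 95th percentile 4.92), were added after seeing the data.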

Additional observations from a re-analysis of the deposited data

Results flagged for a closer look

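Single pools that lay apart from the other 3 of their age by Dixon's criterion were found in 5 of 58 groups of 4 values tested, and chance alone marks about 1 in 20 groups. Among the members these were Igf1 in day 28 replicate 1, at 10.40 against 10.53 to 10.56 in the other day 28 pools, and Igfbp4 in day 28 replicate 2, at 7.69 against 7.80 to 7.82. Among the marker lists they were the secretory principal cell list mean in day 18 replicate 3 (7.91), the clear and narrow cell list mean in day 18 replicate 1 (7.89) and the mesothelium list mean in day 18 replicate 3 (6.78). The Igf1 differences at day 28 against day 18 and at day 60 against day 28 kept their direction and their call in all alternatives run, the one without day 28 replicate 1 included.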

How the results depend on the processing

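Of 828 recomputed member differences (36 differences, 23 alternatives each), 27 lost their call and 10 gained one, and 25 of the 36 differences kept direction and call throughout. No sign changed among the 24 called differences. Among the 12 others 7 values changed sign, with reported differences near 0: Igfbp7 at day 18 against day 7 was 0.011 after quantile normalization (-0.032 as reported), Igf2r at day 28 against day 18 was -0.046 with centred arrays and ran from -0.091 to 0.092 without 1 pool (0.0089 as reported), and Igf2r at day 60 against day 28 was -0.036 after quantile normalization and ran from -0.050 to 0.13 without 1 pool (0.034 as reported). The calls that changed belong to Igf1r, Igfbp3, Igfbp4, Igfbp5, Igfbp6 and Igfbp7, and Igf1, Igf2r and Igfbp2 kept theirs in all alternatives run. The number of members called ran from 6 to 7 at day 18 against day 7, 5 to 7 at day 28 against day 18, 4 to 5 at day 60 against day 28 and 7 to 8 at day 60 against day 7 over the settings, and from 5 to 7, 5 to 6, 4 to 4 and 7 to 8 when 1 pool was left out. Counts over all genes without 1 pool ran from 5856 to 7367, 3677 to 4492, 3431 to 4459 and 8198 to 9304, against 6929, 4491, 4550 and 8946. The labels do not say that the replicate number marks a pairing. With that number as a block, 6, 5, 4 and 7 members were called, and 6492, 4201, 3928 and 8750 genes in all. The calls of Igfbp6 at day 18 against day 7 (adjusted p = 0.102) and Igfbp4 at day 28 against day 18 (0.0776) were lost. The joint test called 7 members under the block and after quantile normalization, and 7 to 9 without 1 pool. Centring arrays on their medians changed the share of calls that were higher to 31.7% at day 28 against day 18, where it was 42.3% as deposited, and to 71.7% at day 60 against day 28, where it was 55.2%. Igfbp5 at day 60 against day 28 passed with centred arrays (adjusted p = 0.0496), when genes below the median level were left out (0.0303) and with an intensity trend and robust prior (0.0125). Of 1040 recomputed values of pathway genes, 1017 kept their call and 23 lost it. RMA compresses differences near background, which limits the sizes given for genes such as Adam28. The pools of the members all lay above background, and compression at high signal was not tested.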
